A study of Mus musculus with 18 samples.

Results

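The enzymes that oxidise choline to glycine were examined in mouse ileum cells through 8 genes, Chdh, Aldh7a1, Bhmt, Bhmt2, Dmgdh, Sardh, Pipox and Gnmt. They were taken by symbol from the scanner files, which hold 14 probes for them among 56605 probes and 37074 gene names. The set was chosen because Sardh differed both by diet and by genotype, so the levels of Sardh are described here without a test, and only the other members were tested. Choline is oxidised in mitochondria to betaine aldehyde by choline dehydrogenase (Chdh), and betaine aldehyde to betaine by the aldehyde dehydrogenase Aldh7a1. Betaine gives a methyl group to homocysteine through Bhmt, which leaves dimethylglycine, and the mitochondrial flavoenzymes Dmgdh and Sardh then remove the remaining methyl groups to give sarcosine and glycine. Pipox is a peroxisomal oxidase of sarcosine and pipecolate, Gnmt makes sarcosine from glycine, and Bhmt2 methylates homocysteine from S-methylmethionine. The chain is best known from liver and kidney.

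Ileum cells of 18 mice were hybridised to one-colour expression arrays, with 1 array per mouse and 6 mice per group. The groups were iPGC1afl/fl CHOW, iPGC1afl/fl HFD and iPGC1a-/- HFD, all on a C57BL6/J background and all carrying the floxed allele of Ppargc1a, the gene of the transcriptional coactivator PGC1a. In iPGC1a-/- mice a Cre recombinase under the villin promoter, active in the intestinal epithelium, removes exons 3 to 5. Mice of all groups, chow included, were 8 weeks old at the start. HFD, with 42% of calories from fat and 0.2% cholesterol, was given for 8 weeks, and the mice were killed after a fast at ZT 3. The comparisons ask how HFD changed expression in iPGC1afl/fl mice, and how iPGC1a-/- mice differed from iPGC1afl/fl mice on HFD. Both use the same iPGC1afl/fl HFD arrays. iPGC1a-/- mice on chow were not analysed here.

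The share of spots well above background ranged from 56.3 to 62.3% over the arrays, and 0 spots were saturated. The 9 enterocyte markers were above background on every array. The preparations were suspensions of many cell types, and in such bulk RNA fewer cells of a type and less RNA per cell cannot be told apart. Both Ppargc1a probes start at bases 2473 and 2964 of the transcript, outside the removed exons, so they check nothing about the deletion. At the brighter one the log2 signal was 11.38 ± 0.07 (SD, n = 6) in iPGC1afl/fl HFD and 11.67 ± 0.26 (SD, n = 6) in iPGC1a-/- HFD (adjusted p = 0.572).

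What the arrays report of each gene is the signal of 60-base probes, and Sardh, Pipox, Gnmt, Dmgdh and Bhmt2 have a single one each. The first 30 bases of the probes behind the main values are given in lower case, 5′ to 3′ as the array files list them, with no base marked. The Sardh probe is shown because all Sardh values rest on it, and the others because they carry the comparison with the rest of the chain.
Sardh: gtgaagggaatctattgatgggatgcaggt
Pipox: gacactgggtgaacttgcgattgctttgac
Chdh: tacaaagagaaatttaatattaaatgagag
Bhmt: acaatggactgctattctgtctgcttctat
Gnmt: aggcactggcagagatggctctcctggctt

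On mm9, the build in the file headers, the Sardh probe lies at chr2:27044997-27045056 on the minus strand, from base 3414 of the transcript. The Pipox probe lies at chr11:77694273-77694332 (minus), the brightest Chdh probe at chr14:30853134-30853193 (plus), the brightest Bhmt probe at chr13:94386862-94386921 (minus) and the Gnmt probe at chr17:46862894-46863042 (minus), where 60 bases are spread over a longer stretch of genome. Their place within exons or untranslated regions was not determined here. Bhmt, Bhmt2 and Dmgdh are neighbours, with all their probes within 136 kb of chromosome 13. The Sardh and Gnmt probes hold 55% G and C, the Chdh, Bhmt and Aldh7a1 probes used here 35% each, and the median of all probes is 41.7%.

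The chain was unevenly detected. Sardh, Pipox, Gnmt, the brightest Aldh7a1 probe, the brightest Bhmt probe and all 4 Chdh probes were well above background on 6 of 6 arrays in every group. Dmgdh, which oxidises the substrate just before sarcosine, was above background on 0 of 6 arrays in each of the groups, with median raw signals of 23.75, 20.25 and 21.5 over local backgrounds of 17 to 17.5. Bhmt2 was likewise above background on 0 of 6 arrays in each group, with median raw signals of 24, 25.75 and 24 over local backgrounds of 18 to 19. Dmgdh and Bhmt2 have a single probe each, and a probe near background does not settle whether the transcript is absent or low. Of the 8 genes 6 passed the detection filter, with 10 of the 14 probes. The remaining Bhmt probes were above background on 3, 1 and 3 arrays and on 1, 1 and 0 arrays of the iPGC1afl/fl CHOW, iPGC1afl/fl HFD and iPGC1a-/- HFD groups. Signals of different probes depend on their sequence and were not ranked against each other.

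**Figure D1:**
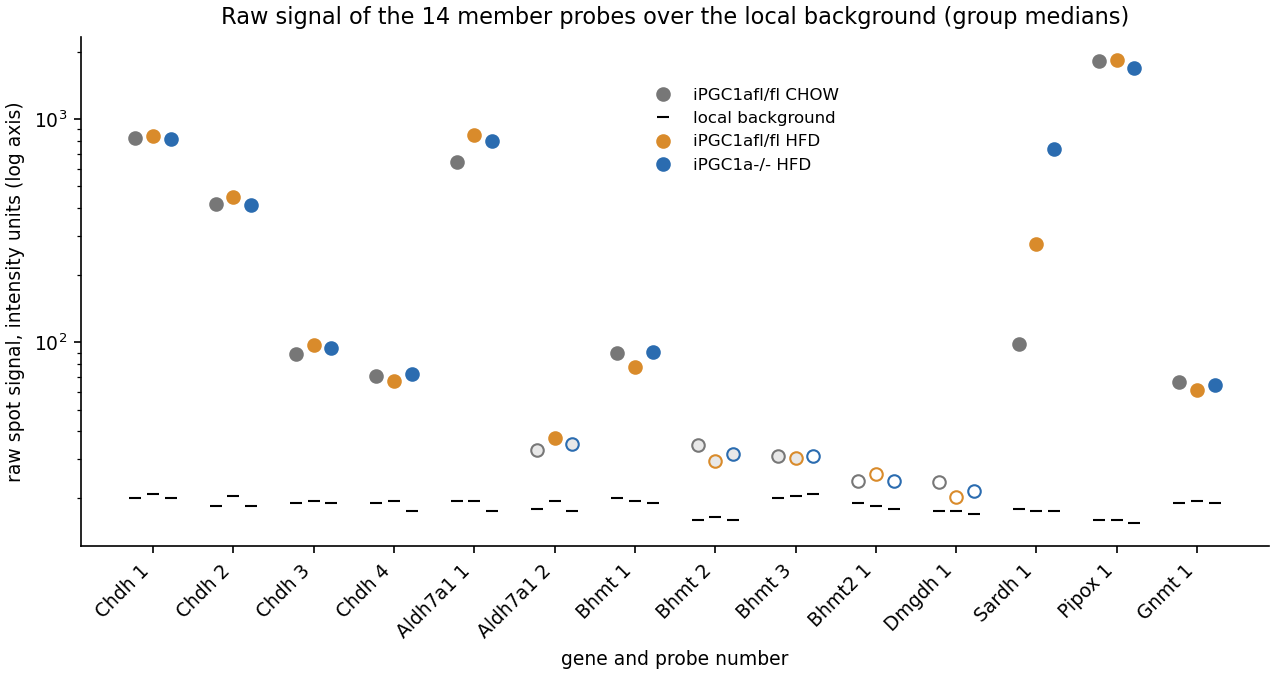
Raw median spot signal (log axis, intensity units) of the 14 probes by group; points are medians over 6 arrays, filled where all 6 arrays were well above background, pale where some were and open where none was, and black dashes are the local background. The Sardh points stand at 98.75, 277 and 738, while Dmgdh and Bhmt2 lie just over the background in all groups.

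Sardh was lowest on chow, higher on HFD and highest in iPGC1a-/- mice on HFD. In iPGC1afl/fl CHOW, replicates 1 to 6 had log2 normalised signals of 5.98, 7.13, 6.02, 6.51, 6.56 and 6.47, a mean of 6.44 ± 0.42 (SD, n = 6). In iPGC1afl/fl HFD they were 8.00, 8.10, 8.22, 8.72, 8.46 and 8.56, a mean of 8.34 ± 0.28 (SD, n = 6). In iPGC1a-/- HFD they were 9.48, 9.73, 9.82, 9.55, 9.35 and 9.72, a mean of 9.61 ± 0.18 (SD, n = 6). The groups did not overlap: the highest chow array lay 0.87 below the lowest iPGC1afl/fl HFD array, and the highest of these 0.63 below the lowest iPGC1a-/- HFD array. The raw signal, before any normalization, followed the same order, with medians of 98.75, 277 and 738 over local backgrounds of 17.5 to 18.

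The diet difference of Sardh was 1.90 on the log2 scale (SE 0.16, 95% confidence interval 1.56 to 2.24), a 3.73-fold higher signal on HFD. The genotype difference on HFD was 1.27 (SE 0.16, 95% confidence interval 0.93 to 1.60), a 2.40-fold higher signal in iPGC1a-/- mice. These intervals take no account of the choice of Sardh by the same contrasts and are not read as tests. From chow to iPGC1a-/- HFD the mean signal was 8.96-fold higher. Among the 21542 genes tested, Sardh had the 34th highest difference by diet and the 8th highest by genotype. Groups that did not overlap were seen for 10.4% of these genes by diet and for 0.966% by genotype. Since Sardh was picked on both contrasts, nothing is read from its own rank or separation. Each of the 3 slides held 2 arrays of every group, and the order of the groups was the same on each: within slides the diet difference was 2.28, 1.59 and 1.82 and the genotype difference 1.26, 1.53 and 1.01.

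The levels of Sardh in the authors' own normalised table were 6.40, 8.32 and 9.58 in the same order of groups. When background subtraction and 75th percentile scaling together replaced qsmooth on the median signal, the diet difference was 2.26.

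**Figure D2:**
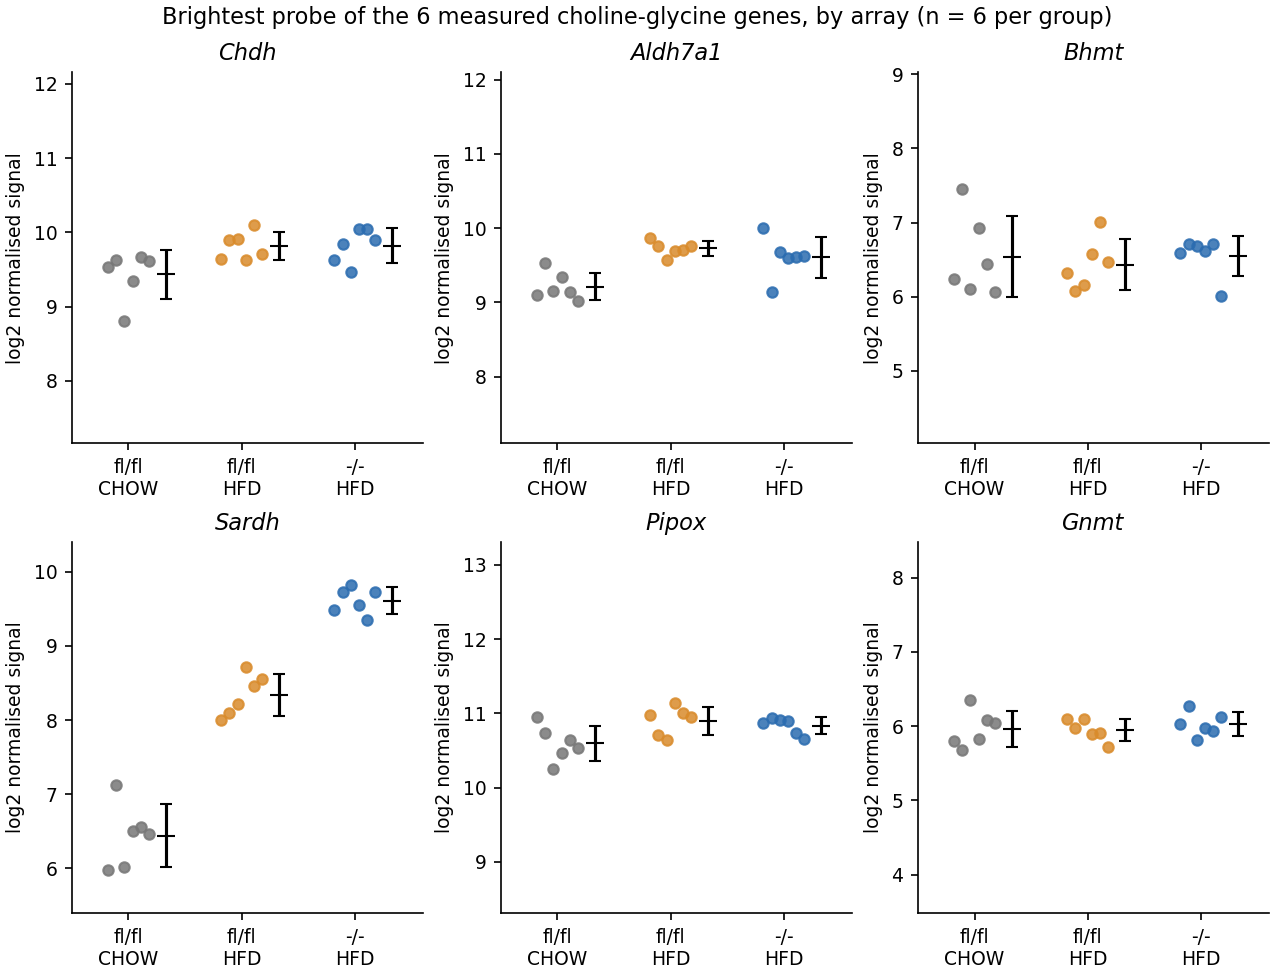
Log2 normalised signal of the brightest probe of the 6 detected genes; each point is an array, the black bar the mean with its SD (n = 6), and all panels span the same number of log2 units. Sardh forms 3 separate groups with means of 6.44, 8.34 and 9.61, and the other genes move by at most 0.51 between group means.

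Apart from Sardh, 5 members had a probe above the detection filter, and Aldh7a1 and Pipox passed the test by diet, both higher on HFD. Passing means an adjusted p of 0.05 or lower at the brightest probe in limma, over all probes tested. These are 2 of 5 genes, beside 24.6% of all genes tested, 10.4% being higher and 14.2% lower. The members were chosen with earlier results of these data known, so this share is a description. Neither reached a fold change of 1.5, which 8.43% of all genes passed together with the adjusted p. The median difference of the 5 was 0.31, against 0.003 over all genes.

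Aldh7a1, which makes betaine and also serves in lysine breakdown, had log2 signals of 9.10, 9.53, 9.16, 9.34, 9.14 and 9.02 in iPGC1afl/fl CHOW. They were 9.87, 9.77, 9.58, 9.69, 9.70 and 9.76 in iPGC1afl/fl HFD, so that every array of this group lay above every chow array. The gap was 0.045, and 10.4% of all genes had groups that did not overlap by diet. The difference was 0.51 (SE 0.11, 1.43-fold, adjusted p = 0.00226). The dimmer Aldh7a1 probe, close to the background, rose by 0.29 (adjusted p = 0.0195).

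Chdh, the entry step of the chain, fell just short. Its brightest probe had log2 signals of 9.53, 9.63, 8.81, 9.35, 9.67 and 9.62 on chow and of 9.64, 9.90, 9.92, 9.63, 10.09 and 9.71 on HFD. The groups overlapped narrowly, and chow replicate 3 was the lowest array. The difference was 0.38 (95% confidence interval 0.10 to 0.67, adjusted p = 0.0505), and it passed in 9 of 12 other ways of processing the data, with adjusted p-values from 0.0197 to 0.0692 over the 12. The other 3 probes differed by 0.30, 0.27 and 0.21 (adjusted p = 0.0739, 0.0638 and 0.222). Before normalization the median raw signals of the brightest probe were 822.5 on chow and 842 on HFD.

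Pipox, the peroxisomal route from sarcosine to glycine, had log2 signals of 10.95, 10.73, 10.26, 10.46, 10.64 and 10.54 on chow and of 10.97, 10.71, 10.64, 11.14, 11.00 and 10.95 on HFD. The difference was 0.31 (SE 0.11, 1.24-fold, adjusted p = 0.0417), and the groups overlapped. Its call was lost when either the filter on dim probes was dropped (adjusted p = 0.0553) or only the 2 groups compared entered the fit (adjusted p = 0.0763). It was also lost without any one of iPGC1afl/fl CHOW replicates 3, 4, 5 and 6, iPGC1afl/fl HFD replicates 1, 4, 5 and 6 and iPGC1a-/- HFD replicates 4 and 5, with adjusted p-values over all 18 such omissions from 0.0130 to 0.121. The median raw signals were 1812 on chow and 1841.5 on HFD. The raw signal of an array's median spot was 47 to 53.5 on chow and 39 to 52 in iPGC1afl/fl HFD, and its part in these small differences was not tested.

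Bhmt, which uses betaine to methylate homocysteine, was spread widely within groups. Its log2 signals were 6.24, 7.45, 6.11, 6.93, 6.44 and 6.07 on chow and 6.32, 6.08, 6.15, 6.58, 7.01 and 6.47 on HFD. The difference was -0.11 (95% confidence interval -0.54 to 0.33, adjusted p = 0.755), an interval that leaves room for a change of either sign. Gnmt, which runs from glycine back to sarcosine, was at 5.96 ± 0.25 on chow and 5.95 ± 0.14 on HFD (SD, n = 6). Its difference was -0.01 (95% confidence interval -0.24 to 0.21, adjusted p = 0.941).

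By genotype none of the 5 other members passed the limma test on HFD. Of them 0 had an unadjusted p under 0.05, beside 2003 of all 21542 genes. Over all genes 0.227% passed, 49 of 21542, with 14 (0.065%) higher and 35 (0.162%) lower in iPGC1a-/- mice; 0.135% passed with a fold change above 1.5. Chdh was at 9.82 ± 0.18 in iPGC1afl/fl HFD and 9.82 ± 0.23 in iPGC1a-/- HFD (SD, n = 6), with a difference of 0.007 and a 95% confidence interval of -0.28 to 0.29. Aldh7a1 in iPGC1a-/- HFD had log2 signals of 9.997, 9.14, 9.68, 9.60, 9.61 and 9.63, with its highest and its lowest HFD array in this group, and differed by -0.12 (interval -0.35 to 0.11). Pipox in iPGC1a-/- HFD had log2 signals of 10.88, 10.93, 10.91, 10.89, 10.74 and 10.66, all within the range of iPGC1afl/fl HFD, and differed by -0.07 (interval -0.29 to 0.15). Bhmt differed by 0.12 (interval -0.31 to 0.55) and Gnmt by 0.08 (interval -0.14 to 0.30). The adjusted p-values of the 5 genes were 0.752 to 0.991.

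**Figure D3:**
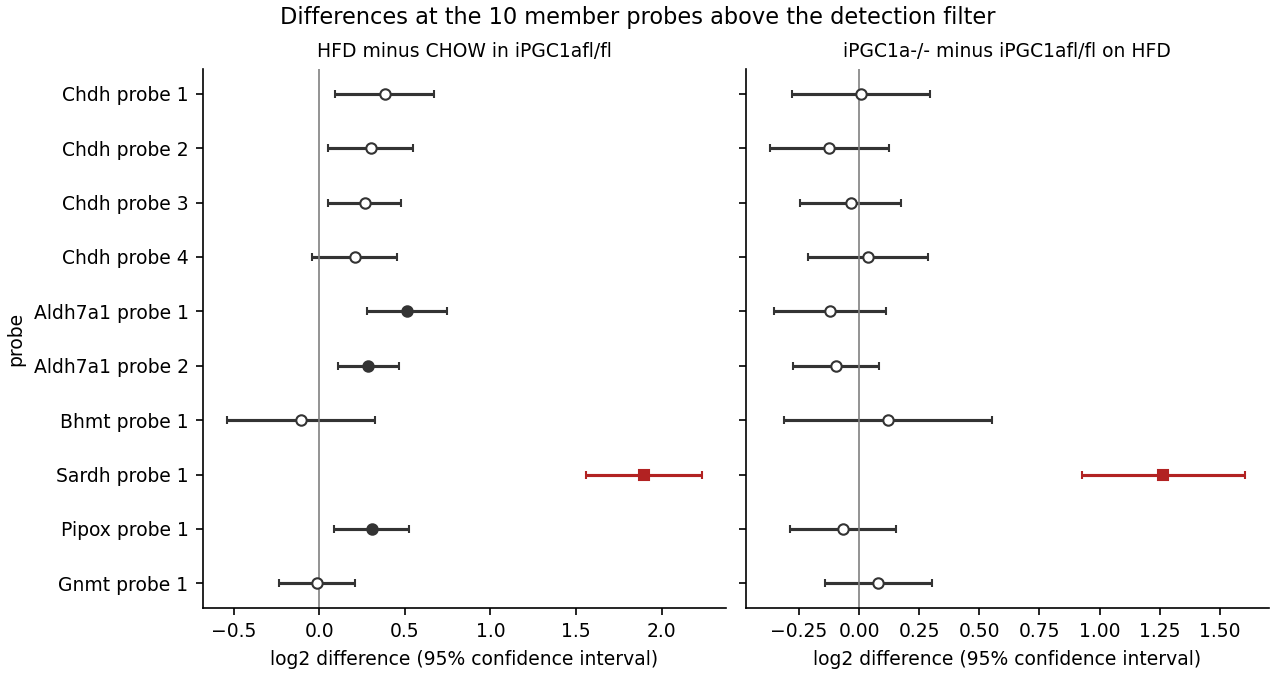
Log2 differences with 95% confidence intervals at the 10 probes above the detection filter, by diet (left) and by genotype on HFD (right); filled circles passed an adjusted p of 0.05, open ones did not, and the red square is Sardh, which was not tested. By genotype the interval of each of the 5 tested genes includes 0, and Sardh, picked on this contrast, is drawn as a description.

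The genes around the chain were grouped into 6 lists with 100 distinct genes, of which 97 had a probe and 87 were tested. By diet 35 of the 87 passed, 19 higher and 16 lower on HFD, which is 40.2% beside the 24.6% of all genes. The lists were chosen with earlier results of these data known. This share and those of the single lists below are therefore descriptions, and no enrichment is read from them. Their median difference was 0.009, against 0.003 over all genes. Of the 46 genes with several probes, Ahcyl2 was the one whose probes passed in opposite directions. In 3 of them, Ahcyl2, Slc44a1 and Sms, only dimmer probes passed, and these genes are not counted as passing.

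Of the carriers of choline, betaine and related compounds, 6 of 10 tested genes passed by diet, 5 higher and 1 lower. This was 60%, beside 24.6% of all genes. Slc6a20a, an imino acid carrier known for proline and betaine uptake, rose by 1.29 (SE 0.15, adjusted p = 5.29e-06). The related Slc6a20b rose by 1.34 (SE 0.17, adjusted p = 1.27e-05), and whether it carries betaine was not examined. Slc6a20a and Slc6a20b are near copies of each other, and signal shared between their probes was not resolved. The choline transporter-like protein Slc44a2 fell by 0.67 (adjusted p = 0.00128). Of the 4 tested probes of the related Slc44a1, only 1 of the dimmer ones passed, with a rise of 0.51 (adjusted p = 0.00331). Its brightest probe differed by 0.03 (adjusted p = 0.818). In phosphatidylcholine synthesis and remodelling, which draws on the same choline, 1 of 7 passed, 14.3% beside 24.6% of all genes. It was the acyltransferase Lpcat3, from 14.59 ± 0.14 on chow to 15.20 ± 0.15 on HFD (SD, n = 6), a rise of 0.61 (adjusted p = 0.000143).

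Glycine and serine metabolism, the product end of the chain, went both ways: 7 of 20 passed, 3 higher and 4 lower. The share was 35%, beside 24.6% of all genes. The lower genes included enzymes of serine synthesis. Phgdh, the first enzyme from glycolysis to serine, went from 9.96 ± 0.71 on chow to 8.40 ± 0.29 on HFD (SD, n = 6), a difference of -1.56 (adjusted p = 8.19e-05), and Psat1, the next enzyme, differed by -1.29 (adjusted p = 0.000113). Shmt2, which makes glycine from serine in mitochondria, differed by -0.85 (adjusted p = 0.00106). Gamt, which makes creatine from the glycine product guanidinoacetate, rose by 0.998 (adjusted p = 1.22e-05).

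Of the folate enzymes and carriers, which receive the one-carbon units that Dmgdh and Sardh release, 9 of 16 passed, 1 higher and 8 lower. This was 56.2%, beside 24.6% of all genes. Mthfd2 and Mthfd1l, mitochondrial folate enzymes, differed by -0.98 (adjusted p = 3.25e-05) and -0.51 (adjusted p = 0.00589), and the folate carrier Slc19a1 by -0.83 (adjusted p = 0.00019). In the methionine cycle, which takes up the methyl group of betaine, 4 of 16 passed, 3 higher and 1 lower. This was 25%, about the 24.6% of all genes. Cth, which makes cysteine from cystathionine, rose by 0.38 (adjusted p = 0.00226). The hydrolase of S-adenosylhomocysteine Ahcy rose by 0.31 (adjusted p = 0.0455), the related Ahcyl1 by 0.26 (adjusted p = 0.0433), and spermidine synthase Srm differed by -0.55 (adjusted p = 0.0399). These last 3 calls were close to the threshold.

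Sardh and Dmgdh are flavoproteins that pass electrons to the electron transfer flavoprotein. Of 18 genes for this carrier, other flavoenzymes and riboflavin supply, 8 passed, 6 higher and 2 lower. The share was 44.4%, beside 24.6% of all genes. The riboflavin transporters parted: Slc52a2 rose by 0.55 (adjusted p = 9.8e-05), and Slc52a3 differed by -0.52 (adjusted p = 0.0252). Proline dehydrogenase Prodh differed by -1.21 (adjusted p = 2.64e-06).

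By genotype 0 of the 87 genes passed the limma test, with 9 at an unadjusted p under 0.05. Among all 21542 genes 2003 had an unadjusted p under 0.05, so 9 of 87 is close to the share over all genes. Named after their values were seen, Aldh1l1, a cytosolic folate dehydrogenase, came closest, at 13.73 ± 0.11 in iPGC1afl/fl HFD and 13.30 ± 0.17 in iPGC1a-/- HFD (SD, n = 6, adjusted p = 0.0631). The proton-coupled folate transporter Slc46a1 had the widest difference, 0.96 (adjusted p = 0.232), with an SD of 0.77 in iPGC1a-/- HFD. Aldh1l1 passed with normexp background correction (adjusted p = 0.0435), with a trended and robust variance (0.0460), without iPGC1a-/- HFD replicate 1 (0.0405) and without iPGC1afl/fl CHOW replicate 3 (0.0445).

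**Figure D4:**
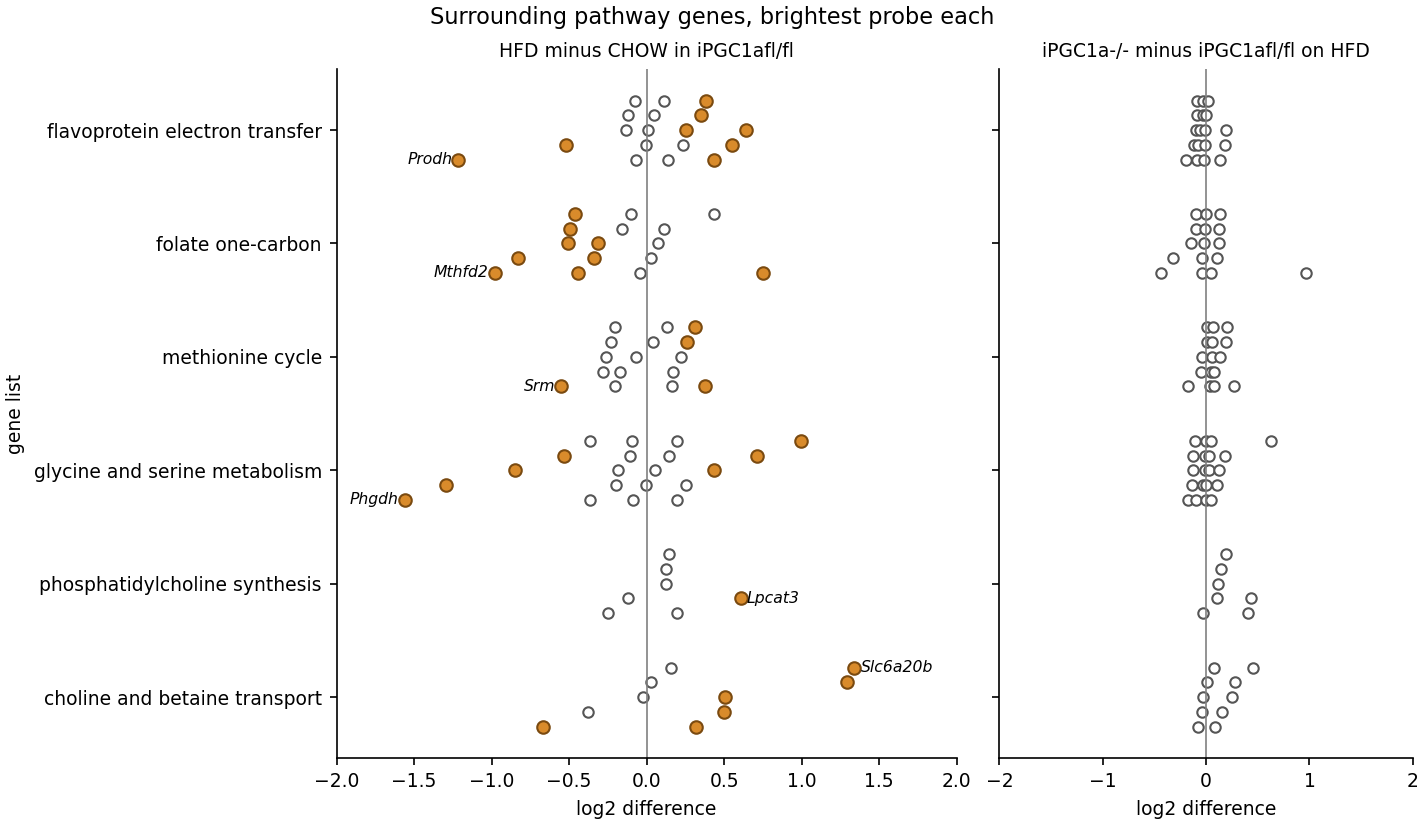
Log2 differences of the 87 tested pathway genes by list, by diet (left) and by genotype on HFD (right); filled points passed an adjusted p of 0.05, and the passing gene with the largest difference in each list is named. By diet 35 genes are filled, with 8 of 9 folate genes to the left of 0, and by genotype none is.

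Cell type markers also moved with diet, by which 24.6% of all genes passed, 10.4% higher and 14.2% lower. T cell markers passed for 7 of 7 genes, all lower on HFD, and the log2 of their summed signal was 13.7 to 15.5 on chow, 12.3 to 13.2 in iPGC1afl/fl HFD and 12.8 to 13.5 in iPGC1a-/- HFD. B and plasma cell markers passed for 6 of 6, all lower, with sums of 10.7 to 12.1, 7.81 to 10.4 and 8.82 to 9.98, and 4 of the 6 were still above background on all iPGC1afl/fl HFD arrays. Goblet markers passed for 7 of 7, all lower, with sums of 18.8 to 19.2, 17.7 to 18.9 and 18.2 to 18.7. Of the crypt stem and cycling markers 3 of 7 passed, all lower. The sum of the 9 enterocyte markers was 19.6 to 19.9, 19.9 to 20.1 and 20.0 to 20.3, and 2 of 9 (22.2%) passed, both higher. Other epithelial lists moved otherwise: of the villus tip markers 4 of 6 passed, 1 higher and 3 lower, with sums of 16.9 to 17.5, 16.9 to 17.4 and 17.0 to 17.3. Of the ileal enterocyte markers 3 of 5 passed, 1 higher and 2 lower, with sums of 17.4 to 18.4, 17.4 to 17.9 and 17.1 to 17.9. Of the proximal small intestine markers 3 of 6 passed, 2 higher and 1 lower. In all 18 lists 43 of 97 tested markers passed by diet, beside 24.6% of all genes. The marker lists too were chosen with earlier results of these data known, so their shares are descriptions. The part of these shifts in the diet differences above was not tested.

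For the organs best known for Sardh, 6 of 8 hepatocyte markers were tested and albumin was below the detection filter. The sum of the 6 was 14.6 to 16.1 on chow, 15.8 to 16.0 in iPGC1afl/fl HFD and 16.0 to 16.6 in iPGC1a-/- HFD, most of it from the apolipoprotein Apoc3, which enterocytes also make. Of them 3 passed by diet, 2 higher and 1 lower, beside 24.6% of all genes. Of the kidney proximal tubule markers, 4 of 6 were tested and 0 passed by diet (0 at an unadjusted p under 0.05), with sums of 7.77 to 8.09, 7.83 to 8.25 and 7.64 to 8.15. Over all genes 8048 of 21542 had an unadjusted p under 0.05 by diet. By genotype 0 of the 97 markers tested in 18 lists passed, with 8 at an unadjusted p under 0.05. Over all genes 2003 of 21542 were under that value by genotype.

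Within 0.5 Mb of the Sardh probe 17 other genes were tested, among them the Surf gene cluster. By genotype 0 of them passed the limma test, beside 0.227% of all genes. Surf1, with a difference of 0.15, was the 1 with an unadjusted p under 0.05, beside 2003 of all 21542 genes. The 17 had a median difference of 0.05, a range of -0.16 to 0.17 and a smallest adjusted p of 0.511. By diet 3 of the 17 passed, beside 24.6% of all genes: Surf6 differed by -0.32 (adjusted p = 0.0257), Med22 by 0.25 (adjusted p = 0.0141) and the hexose transporter Slc2a6 by -0.71 (adjusted p = 0.00146). These 3 were named because they are the count itself.

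**Figure D5:**
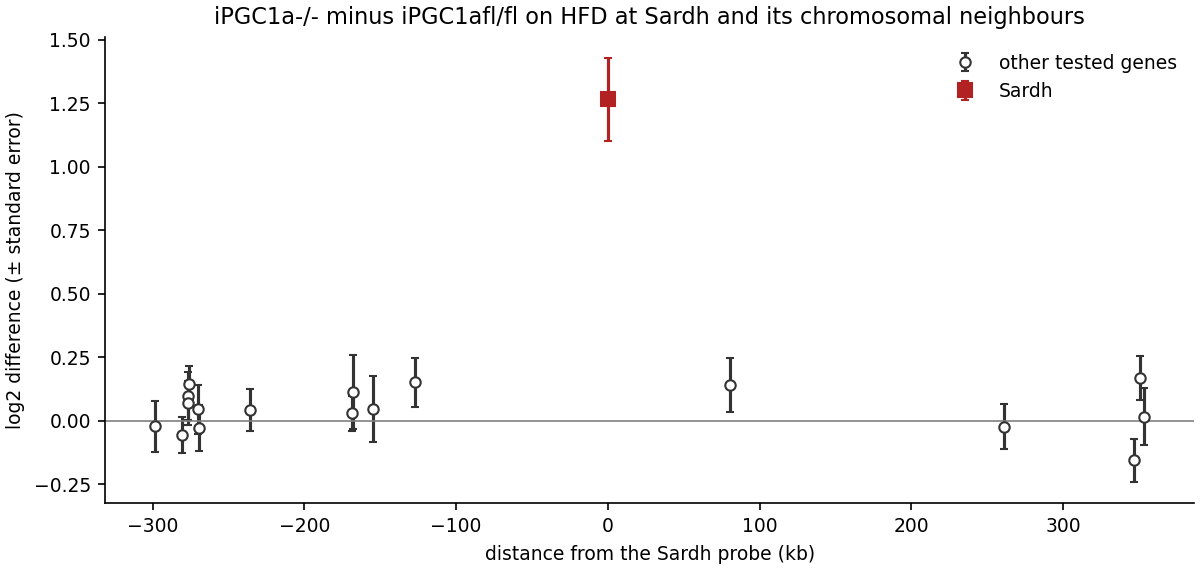
Log2 difference by genotype on HFD, with its standard error, of Sardh (red square) and of the 17 other tested genes by the distance of their probes from the Sardh probe. Sardh stands at 1.27 and its neighbours between -0.16 and 0.17.

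Genes with a pattern like that of Sardh were ranked by Pearson's r with its probe over the 18 arrays, among 21468 genes. As the arrays form 3 groups that differ in Sardh, this r mostly reflects group means, and it is a description. The 5 highest were Gm32960 (0.96), Mien1 (0.96), the retinaldehyde dehydrogenase Aldh1a1 (0.96), the alkaline ceramidase Acer1 (0.95) and Dap (0.95). Aldh1a1 differed by 1.56 by diet and 0.39 by genotype, and Gm32960 by 2.27 and 0.94. Among the choline-glycine genes r was 0.63 for Aldh7a1, 0.59 for Chdh, 0.54 for Pipox, 0.13 for Bhmt and 0.04 for Gnmt. Of the pathway genes Slc6a20b came nearest, 16th of all, with 0.93.

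After the group means were removed, other genes led: Pdia4 (0.84), LOC102632383 (0.77), Sdf2l1 (0.77), Scin (0.75) and Gm32755 (0.75). Pdia4 and Sdf2l1 serve protein folding in the endoplasmic reticulum, and Scin cuts actin filaments. On this measure Bhmt, spread widely within groups, had the highest r of the 5 other members, 0.63 (87th of all genes). Pipox had 0.30, Chdh 0.21 and Aldh7a1 0.17, and Gnmt had -0.46. These values rest on 18 arrays, and no test was made of them.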

How the data were processed

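The authors deposited, for each of 18 arrays (SurePrint G3 Mouse GE v2), spot intensity values from Agilent Feature Extraction 10.10.1.1, not normalized between arrays, and a table of log2 values that, by their methods, were filtered, corrected for washing bath and labelling serial and normalized with qsmooth. Those batches are not named in the sources used here, so the correction was not repeated. From the scanner files, control spots and the 46 to 153 spots flagged as outliers on an array were dropped and spots of a probe averaged. A probe was kept if 5 or more of the 6 arrays in some group had it well above background (32726 probes). Normalization of the log2 median signal used a qsmooth written for R 4.3.3, with a window of 0.05. One model of the 3 groups was fitted with limma 3.58.1 (lmFit, eBayes), with Benjamini-Hochberg adjustment over all probes. A gene is represented by its brightest tested probe. Groups came from the sample titles; each array was 1 mouse. 

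Members and lists were chosen with earlier results of these data known. Named were all members, Ppargc1a, up to 4 passing genes per list with the largest difference (some are not reported here), genes passing by genotype, and the 5 genes most like Sardh on each measure. On simulated data with these means and spreads, changes of 1 log2 unit were recovered at 92% of probes by diet and 98% by genotype, and of 0.5 at 55% and 61%. The simulation changed far fewer probes than the 7488 called here by diet, so its recovery does not describe that contrast. It changed more probes than the 49 genes called by genotype and drew the noise of each probe independently. Its recovery therefore does not measure the sensitivity of the genotype contrast either. Each contrast was simulated in a single draw, and the recovery by diet and by genotype was not compared. The number of arrays limits the precision: the median SE of a difference was 0.104. Alternatives covered normalization, background, filter, blocks, variance, probe choice, threshold and each array left out. Plots used Python 3.11.15 with matplotlib 3.10.9.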

Additional observations from a re-analysis of the deposited data

Results flagged for a closer look

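Of 93 sets of 6 arrays examined (each tested member probe and named pathway gene in each group), 6 held 1 array that stood apart from the other 5, where chance flags about 1 in 20. The value given is the gap to the nearest array divided by the range of the group. Among the members these were Chdh probe 2 in iPGC1afl/fl CHOW replicate 2 (0.754, at 9.16 against 8.64 for the next), Chdh probe 3 in iPGC1afl/fl HFD replicate 6 (0.684, at 7.03 against 6.64) and Bhmt probe 1 in iPGC1a-/- HFD replicate 6 (0.831, at 6.02 against 6.59). Among the pathway genes they were Ahcyl1 in iPGC1afl/fl CHOW replicate 4 (0.792, at 8.78 against 8.96), Gamt in iPGC1afl/fl CHOW replicate 3 (0.722, at 6.76 against 7.48) and Lpcat3 in iPGC1afl/fl HFD replicate 1 (0.645, at 14.92 against 15.18). No array of Sardh stood apart in this way.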

How the results depend on the processing

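Sardh kept its direction under all alternatives: the diet difference was 1.58 to 2.26, the highest with background-subtracted signals (75th percentile scaling), and 1.79 to 2.04 with an array left out. The genotype difference was 1.16 to 1.35, and 1.21 to 1.36 with an array left out. A fold change above 1.5 beside the adjusted p left 1815 genes by diet and 29 by genotype, 14 pathway genes and 0 other members by diet. Other members passing by diet numbered 1 with no filter and with only the 2 groups compared, and 1 to 3 with an array left out. The count was 1 without iPGC1afl/fl CHOW replicate 3 or 4, iPGC1afl/fl HFD replicate 4, 5 or 6, or iPGC1a-/- HFD replicate 4 or 5, where Pipox was lost. With an array left out, genes passing by genotype numbered 26 to 60, the fewest (26 to 30) without iPGC1afl/fl HFD replicate 1, 2 or 4 or iPGC1a-/- HFD replicate 2 or 3. Pathway genes passing by genotype numbered 1 with normexp and with trended and robust variance, and 0 to 1 with an array left out. The cause of these changes was not tested.

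Differences near 0 changed sign. Chdh by genotype was -0.000189 in the authors' table, -0.0281 as the mean of its probes and -0.0514 to 0.0837 with an array left out. Gnmt by diet was 0.0591 with background-subtracted signals, 0.0173 in the authors' table, 0.0753 with 75th percentile scaling of the median signal, 0.0382 with normexp and 0.0171 with quantile normalization, and -0.0652 to 0.0477 with an array left out. Bhmt by diet was -0.241 to 0.0845 with an array left out, the sign turning without iPGC1afl/fl CHOW replicate 2. Chdh by diet passed in 5 of 18 omissions (iPGC1afl/fl CHOW replicates 2, 5 and 6, iPGC1afl/fl HFD replicate 1 and iPGC1a-/- HFD replicate 3). Ahcy, Ahcyl1, Srm and Slc52a3 lost their calls in 3, 3, 4 and 3 of 12 processing alternatives and in 13, 10, 7 and 4 of 18 omissions; the remaining named pathway genes passed by diet in all of these.

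The deviations of same-numbered arrays were correlated in some pairs and not in others (r from -0.13 to 0.28 between iPGC1afl/fl CHOW and iPGC1afl/fl HFD, and from -0.19 to 0.33 between iPGC1afl/fl HFD and iPGC1a-/- HFD), and 4 and 3 of 6 correlated best with their own number. Random matching would on average give fewer such best matches. As the labels tie the numbers to nothing shared and some pairs were negatively correlated, the arrays were not taken as pairs in the main fit. Whether same-numbered arrays share something was not tested. With the replicate number as a block, 5910 genes passed by diet and 36 by genotype, 3 other members by diet and 0 by genotype, and 34 pathway genes by diet and 0 by genotype, and the Sardh differences stayed at 1.90 and 1.27. Chdh, which fell just short in the main fit, was among the members passing by diet in limma with the replicate block (adjusted p = 0.0259). With the slide as a block the members passing were 3 and 0.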
